A study of Mus musculus with 20 samples.

Results

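The kinesin family genes are the microtubule motor genes whose symbols begin with Kif or Kifc followed by a digit. All rows of the deposited expression table with such a symbol were taken, which gave 42 of 23235 genes. The study compared Cxxc1-null with WT male germ cells at 3 stages of meiosis, and Cxxc1 encodes a CpG-binding subunit of the complexes that methylate histone H3 at lysine 4. The groups were Cxxc1-null pachytene, WT pachytene, Cxxc1-null diplotene, WT diplotene, Cxxc1-null meiosis II and WT meiosis II cells, with 2 RNA libraries in each of the 6 groups. All mice were adult males on a C57BL/6 background, and each library was made from 500 cells sorted by flow cytometry, with the Smart-seq2 full-length method primed with oligo-dT. The sources used here do not give how the Cxxc1 allele was deleted or in which cells. Nothing in the labels ties the paired libraries of a group to different animals. The p-values therefore reflect library-to-library spread alone, and that spread may be technical. H3K4me3 ChIP libraries of the series were not analysed here.

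Kinesins are ATP-driven motors that walk along microtubules or take microtubule ends apart. In dividing cells they separate spindle poles, move and hold chromosomes, set microtubule length and build the central spindle on which cytokinesis is completed. Others carry cargo through the cytoplasm or move intraflagellar transport trains along cilia and the growing sperm tail, so a male germ cell passing through meiosis and into spermiogenesis uses members of each kind. The 42 genes were sorted by these roles into 10 of spindle assembly and length, 3 chromosome arm motors, 4 of the central spindle and cytokinesis, 9 of the cilium, flagellum and intraflagellar transport, and 16 of cargo transport.

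Expression is given in FPKM, which scales fragments to the length of the transcript and the size of the library, and the sequencing depth behind the values is unknown. Cxxc1 itself had 9.19 and 9.57 FPKM in Cxxc1-null against 11.7 and 17.3 FPKM in WT pachytene libraries. It had 9.57 and 8.29 FPKM in Cxxc1-null against 13.7 and 17.6 FPKM in WT diplotene libraries. In meiosis II it had 3.10 and 2.02 FPKM in Cxxc1-null against 12.5 and 12.8 FPKM in WT libraries. Its averaged log2 difference was -1.08 ± 0.15 (limma adjusted p = 0.00167), and the pachytene and diplotene differences alone did not pass the test (limma adjusted p = 0.472 and 0.221). Spermatocyte markers were present in every library, where the summed FPKM of 8 of them lay between 1017 and 4147. Markers of other cells were also present. The 13 round spermatid genes of the table summed to 2871 to 5410 FPKM in Cxxc1-null and 8196 to 11060 FPKM in WT meiosis II libraries. The 11 Sertoli genes summed to 422 to 484 FPKM in Cxxc1-null and 454 to 592 FPKM in WT meiosis II libraries, against 6.76 to 108 FPKM in the pachytene and diplotene libraries. Of the 10 peritubular, endothelial and blood markers, 7 stayed under 1 FPKM in all libraries. In bulk samples of this kind, fewer cells of a type and less RNA per cell cannot be told apart. A pair of libraries, picked after the data were seen, stood apart from their partners. Cxxc1-null diplotene replicate 2 had a round spermatid sum of 1198 FPKM against 469 FPKM in replicate 1. WT pachytene replicate 2 had 9.28 FPKM of Kifc3, itself a kinesin of the set, against 4.48 FPKM in replicate 1. Its spermatocyte sum was 2036 FPKM against 4147 FPKM in replicate 1. Its round spermatid sum of 2112 FPKM was close to the 2307 FPKM of replicate 1, and its Sertoli sum of 62.1 FPKM to 74.5 FPKM. Other partners differed as well and were not set apart. The round spermatid sum was 2871 FPKM in replicate 1 and 5410 FPKM in replicate 2 of Cxxc1-null meiosis II cells. The sum of 6 Leydig genes was 269.9 FPKM in replicate 1 and 47.4 FPKM in replicate 2 of WT meiosis II cells.

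A few motors made up much of the kinesin transcript pool. Kif9, a motor of motile flagella, averaged 120.1 FPKM over the 12 libraries. Kif2a and Kif2b, which take microtubule ends apart, averaged 83.3 and 62.9 FPKM. Kif3a and Kif3b, the motor subunits of the intraflagellar transport kinesin, averaged 31.5 and 30.9 FPKM, and the centromeric depolymerase gene Kif2c averaged 26.3 FPKM. The summed FPKM of all 42 genes was 381 ± 16.6 in Cxxc1-null and 390 ± 40.4 in WT pachytene cells (SD, n = 2 in each group here and below). It was 501 ± 20.3 in Cxxc1-null and 512 ± 40.7 in WT diplotene cells, and 741 ± 44.3 in Cxxc1-null and 823 ± 63.2 in WT meiosis II cells. Within each stage the genotypes overlapped except in meiosis II, where the higher Cxxc1-null library (773 FPKM) lay just under the lower WT library (778 FPKM). The composition of the pool shifted with stage and genotype. Kif2b supplied 3.77% of the summed kinesin FPKM in Cxxc1-null and 0.926% in WT pachytene cells, 4.56% in Cxxc1-null and 1.08% in WT diplotene cells, and 26.1% in Cxxc1-null and 16.7% in WT meiosis II cells.

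At the other end of the range, 10 members did not reach 1 FPKM in 2 libraries and were not tested. Kif12 was listed at 0 in all 12 libraries. Kif1a, Kif1c, Kif5a, Kif13a, Kif26a and Kif26b, cargo motors or relatives of them, and Kif3c, an alternative partner of Kif3a, reached at most 0.736 FPKM. Kifc1 and Kifc5b, minus-end-directed spindle motors, reached at most 0.929 and 0.617 FPKM. They are near-identical copies whose reads the authors' counting could have split, so their levels are uncertain. Of the 32 tested members, 24 to 30 reached 1 FPKM in a given library.

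**Figure D1:**
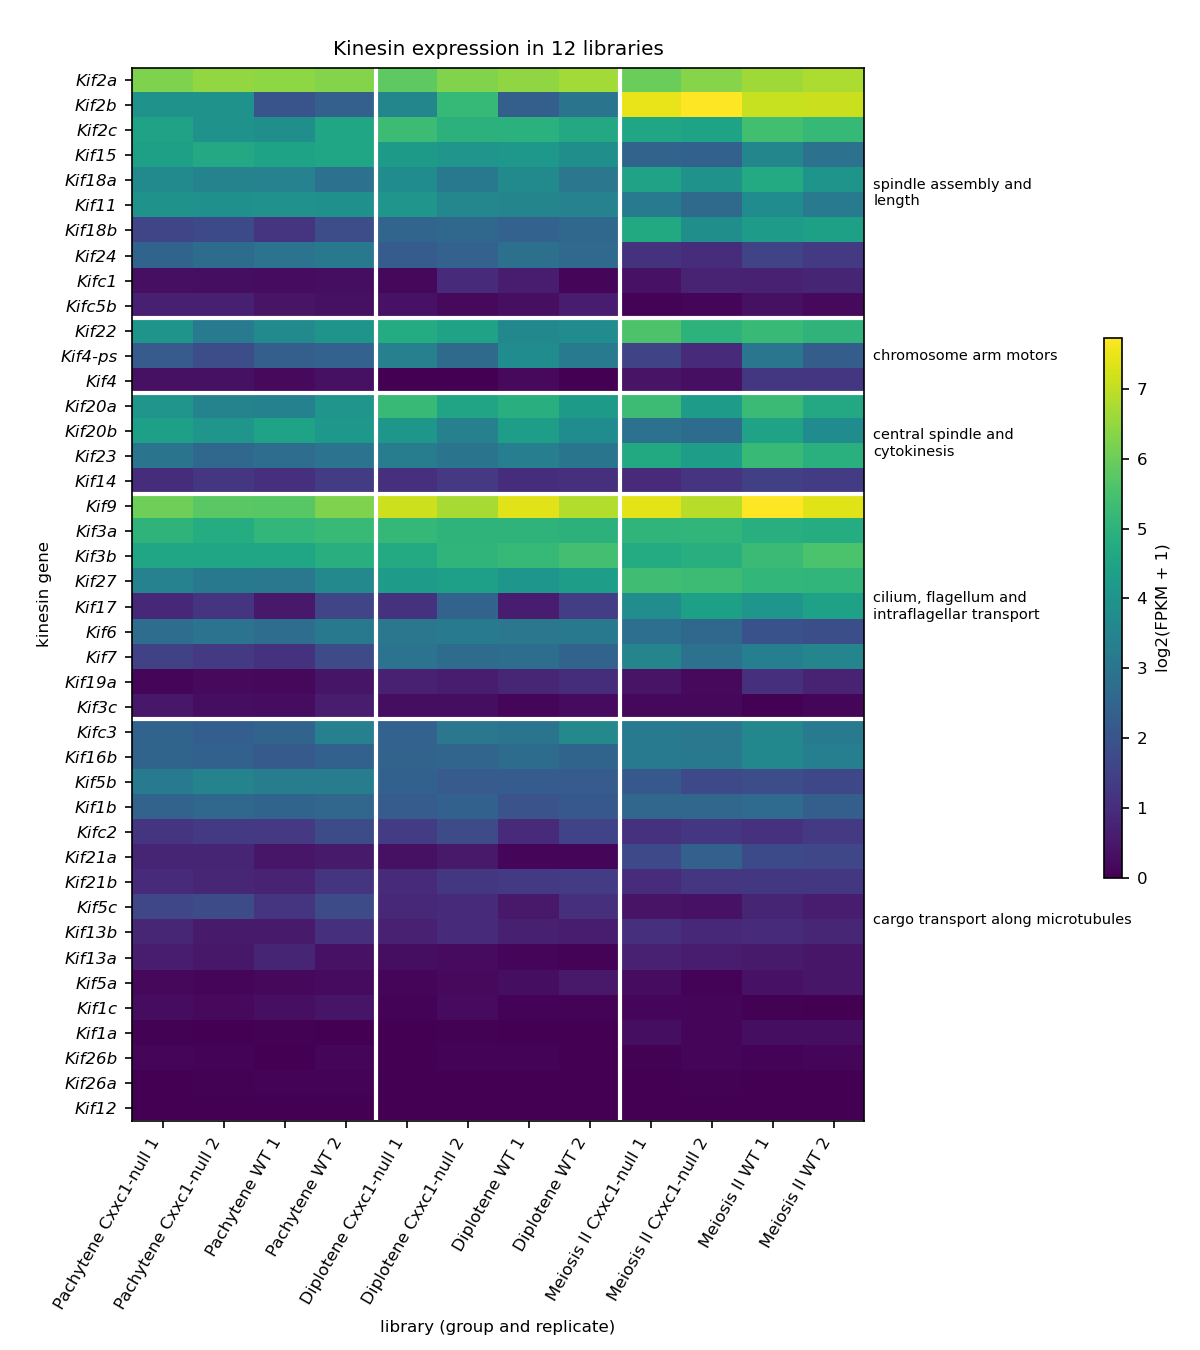
Expression of the 42 kinesin genes (rows, grouped by role and ordered by mean) in each of the 12 libraries (columns), as log2(FPKM + 1) on the colour scale. Kif2a and Kif9 were bright in all libraries, Kif2b was brightest in the 4 meiosis II libraries and brighter in Cxxc1-null than in WT pachytene and diplotene libraries, and the lowest rows are cargo motors.

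The genotype comparisons asked which kinesins differ in level between Cxxc1-null and WT cells of the same stage. Calls are genes with a Benjamini-Hochberg adjusted p under 0.05 in limma on log2(FPKM + 1), adjusted over all 12956 genes tested. In pachytene and in diplotene cells 0 of 32 kinesins were called, where 0.355% and 0.787% of all genes tested were called. By direction, 0.34% of all genes were called higher and 0.0154% lower in Cxxc1-null pachytene cells, and 0.702% higher and 0.0849% lower in Cxxc1-null diplotene cells. At an unadjusted p under 0.05, 1 of 32 kinesins passed in pachytene and 3 in diplotene cells, where 1388 and 1747 of all 12956 genes tested passed. In meiosis II, 5 of 32 kinesins were called, 1 higher and 4 lower in Cxxc1-null, which is 15.6% of the members against a background of 10.5% of all genes (6.14% higher, 4.35% lower). The higher gene was Kif6, and the lower ones were Kif4, Kif4-ps, Kif20b and Kif19a. Of these, Kif4 and Kif19a reached 1 FPKM in WT libraries alone, so they entered the test through the genotype in which they were high, and without them 3 of 30 kinesins were called, or 10%. The round spermatid sum was also lower in the Cxxc1-null meiosis II libraries (above), but through part of its list. Prm1, Prm2, Tnp1, Tnp2 and Hspa1l, 5 of the 13 genes, were lower in Cxxc1-null without overlap, and the other 8 overlapped. The share of all genes without such overlap was not counted. Without the protamine and transition protein genes Prm1, Prm2, Tnp1 and Tnp2, a split chosen after their values were seen, the 9 others summed to 1750 and 2513 FPKM in Cxxc1-null against 2177 and 1700 FPKM in WT meiosis II libraries. The part of these transcripts in the kinesin differences was not tested. Averaged over the stages, 5 of 32 were again called, 1 higher (Kif2b) and 4 lower (Kif4, Kif4-ps, Kif19a and Kif24), against a background of 16.7% (11.5% higher, 5.13% lower), and without Kif4 and Kif19a 3 of 30 were called here too. The median difference of the 32 members in meiosis II was -0.23 on the log2 scale against 0.02 over all genes tested. In pachytene cells it was -0.06 against 0.04, and averaged over stages it was -0.04 against 0.05. In diplotene cells it was 0.09 against 0.09, and turned to -0.08 with quantile normalization and to -0.04 with a common median. The same 2 scalings moved the diplotene differences of all genes tested by a median of -0.12 and -0.13.

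Both counts of 5 rest on few libraries. In meiosis II the count was 5 without either pachytene WT library, 3 without any diplotene library, 1 without either Cxxc1-null pachytene library, 1 without either Cxxc1-null meiosis II library, and 0 or 1 without WT meiosis II replicate 1 or 2. The averaged count was 1 without both libraries that stood apart, and that call was Kif2b. With the replicate number as a block it was 8, and with a block within genotype it was 1. It was also 1 without either Cxxc1-null pachytene library, Cxxc1-null diplotene replicate 2, Cxxc1-null meiosis II replicate 2, WT diplotene replicate 1 or WT meiosis II replicate 1, and 2 or 3 without WT pachytene replicate 2, WT diplotene replicate 2, WT meiosis II replicate 2 or Cxxc1-null diplotene replicate 1.

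**Figure D2:**
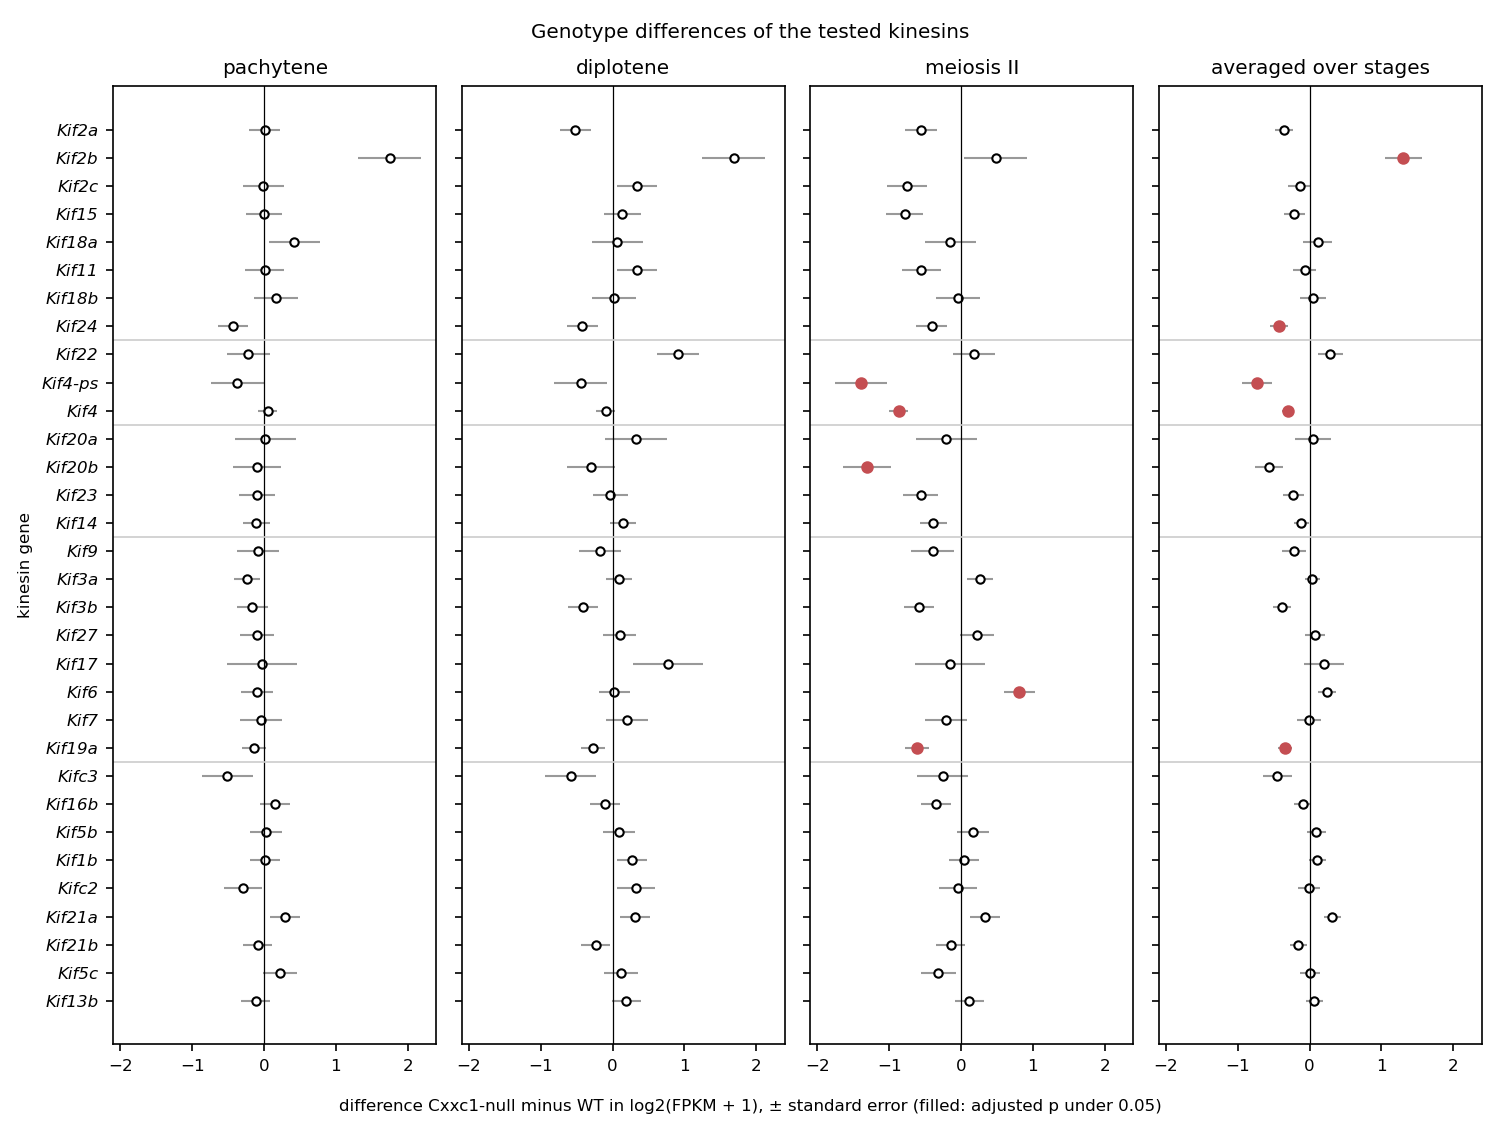
Differences Cxxc1-null minus WT in log2(FPKM + 1) with standard errors for the 32 tested kinesins, at each stage and averaged over stages, ordered by role, with filled points for adjusted p under 0.05. No point is filled at pachytene or diplotene, 5 are filled in meiosis II and 5 in the average, and Kif2b lies farthest right in the average at 1.31.

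The stage comparisons asked which kinesins change in level as the cells pass from pachytene to diplotene and on to meiosis II. From pachytene to diplotene, 7 of 32 kinesins were called in Cxxc1-null cells, 5 higher and 2 lower, against a background of 29.3% (11.9% higher, 17.4% lower). In WT cells 6 of 32 were called, 5 higher and 1 lower, against a background of 26.5% (9.08% higher, 17.4% lower). From diplotene to meiosis II, 13 of 32 were called in Cxxc1-null cells, 8 higher and 5 lower, against a background of 44.1% (25.3% higher, 18.8% lower). In WT cells 14 of 32 were called at this step, 11 higher and 3 lower, against a background of 45% (26.1% higher, 18.9% lower). The counts at this step include Kif4 and Kif21a, which reached 1 FPKM in meiosis II libraries alone. They entered the test through the stage in which they were high, so their rises had to differ. Kif19a, in the WT count at the step to diplotene, reached 1 FPKM in a WT diplotene and a WT meiosis II library alone. It entered the test through no pachytene library. The stage counts were not redone without these genes. The shares of members called were 21.9% in Cxxc1-null and 18.8% in WT cells at the step to diplotene, and 40.6% in Cxxc1-null and 43.8% in WT cells at the step to meiosis II, each under its background. At the step to diplotene Kif7, Kif9 and Kif27 rose and Kif5b fell in both. Between diplotene and meiosis II, Kif2b, Kif4, Kif16b, Kif17, Kif18b, Kif21a, Kif23 and Kif27 rose and Kif15 and Kif24 fell in both genotypes, of which the Cxxc1-null call of Kif4 held in 7 of 19 other settings and that of Kif16b in 14 of 22.

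The balance of these calls depended on the scaling. Quantile normalization moved the median step to meiosis II of all genes tested by -0.28 in WT and by -0.13 in Cxxc1-null cells, and a common median moved it by -0.30 in WT and by -0.11 in Cxxc1-null cells. With quantile normalization the kinesins called at this step were 6 higher and 9 lower in Cxxc1-null and 9 higher and 8 lower in WT cells. With a common median they were 6 higher and 7 lower in Cxxc1-null and 9 higher and 5 lower in WT cells. The same scalings gave 8 higher and 1 lower, and 9 higher and 2 lower, at the step to diplotene in Cxxc1-null cells. The members' median step to meiosis II was 0.07 in Cxxc1-null and 0.32 in WT cells, and under the scalings it turned to -0.13 and -0.04 in Cxxc1-null cells and became 0.01 and 0.02 in WT cells. At the step to diplotene, the count in Cxxc1-null cells was 0 without Cxxc1-null pachytene replicate 2 and 2 without either Cxxc1-null diplotene library. In WT cells it was 2 without WT pachytene replicate 1 or WT diplotene replicate 2, and 1 without WT diplotene replicate 1. At the step to meiosis II in WT cells the count was 9 without WT meiosis II replicate 1. Gene by gene, none of the 13 calls at the step to diplotene held in every other setting that gave a value, and each was lost on leaving out at least 1 library of the groups compared. Of the 27 calls at the step to meiosis II, 18 held in every such setting. Among them were both Kif21a calls and the WT call of Kif4, genes that entered the test through meiosis II libraries alone.

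Markers of other cells moved with the stages as well. The Sertoli sum was 422 to 484 FPKM in meiosis II against 6.76 to 16.1 FPKM in diplotene libraries of Cxxc1-null cells, and 454 to 592 FPKM in meiosis II against 9.63 to 14.1 FPKM in diplotene libraries of WT cells. The sum of 6 Leydig genes was 101 to 188 FPKM in meiosis II against 12.3 to 22.7 FPKM in diplotene libraries of Cxxc1-null cells, and overlapped in WT cells, at 47.4 to 269.9 FPKM in meiosis II and 38.4 to 68.4 FPKM in diplotene libraries. The round spermatid sum was 2871 to 5410 FPKM in meiosis II against 469 to 1198 FPKM in diplotene libraries of Cxxc1-null cells, and 8196 to 11060 FPKM in meiosis II against 608 to 1031 FPKM in diplotene libraries of WT cells. At the step to diplotene the round spermatid and Sertoli sums went down. The round spermatid sum in pachytene libraries was 1593 to 2317 FPKM in Cxxc1-null and 2112 to 2307 FPKM in WT cells, and the Sertoli sum there was 96.2 to 108 FPKM in Cxxc1-null and 62.1 to 74.5 FPKM in WT cells. The part of any of these cells in the kinesin steps was not tested.

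**Figure D3:**
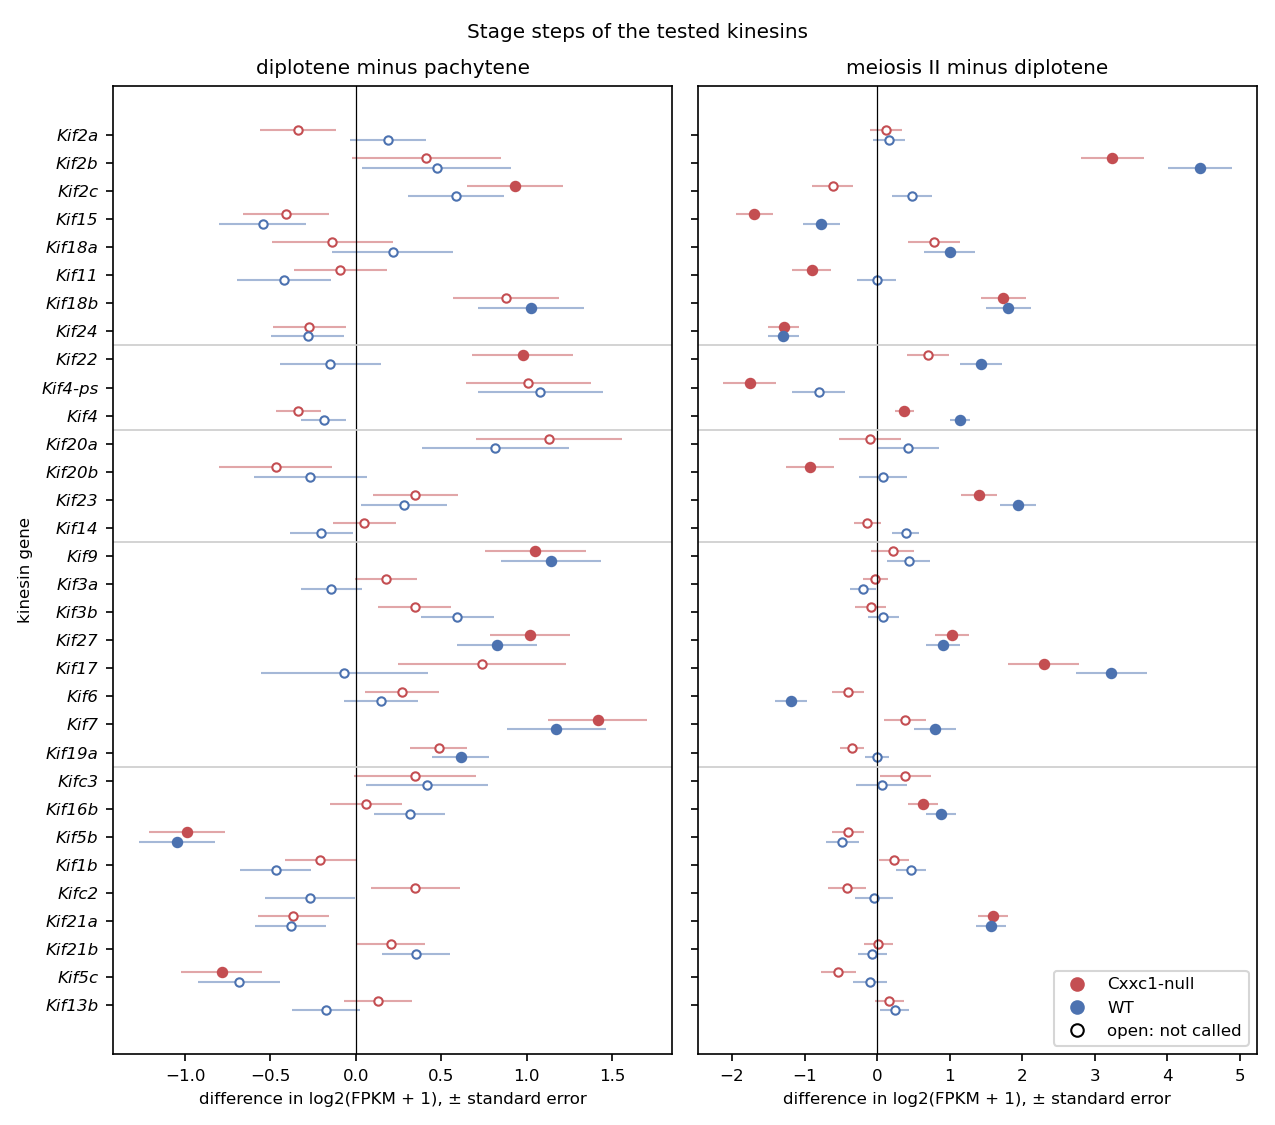
Stage differences in log2(FPKM + 1) with standard errors for the 32 tested kinesins, diplotene minus pachytene on the left and meiosis II minus diplotene on the right, with Cxxc1-null above WT in each row and filled points for adjusted p under 0.05. Kif2b and Kif17 have the largest steps to meiosis II, at 3.24 and 2.30 in Cxxc1-null and 4.45 and 3.22 in WT cells, and Kif5b is the lowest point on the left.

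Among the spindle genes, Kif2b stood out. KIF2B is a depolymerase that in dividing human cells acts at kinetochores and corrects faulty microtubule attachments. In pachytene cells Kif2b had 14.4 and 14.4 FPKM in Cxxc1-null against 3.05 and 4.17 FPKM in WT libraries. In diplotene cells it had 10.6 and 35.1 FPKM in Cxxc1-null against 4.10 and 6.91 FPKM in WT libraries. In meiosis II it had 177 and 209.9 FPKM in Cxxc1-null against 136 and 139 FPKM in WT libraries. At each of the 3 stages both Cxxc1-null libraries lay above both WT libraries, and replicate 2 was far above replicate 1 in Cxxc1-null diplotene cells. The averaged log2 difference was 1.31 ± 0.25 (limma adjusted p = 0.00825), a 2.47-fold higher value on the scale of FPKM + 1. It was called under each of the 21 other settings that gave a value, at 1.03 to 1.58. It was 1.09 ± 0.16 without the libraries that stood apart, which were picked after the data were seen. The differences within single stages did not pass the test. They were 1.75 ± 0.44 in pachytene (limma adjusted p = 0.156), 1.69 ± 0.44 in diplotene (limma adjusted p = 0.107) and 0.48 ± 0.44 in meiosis II (limma adjusted p = 0.534). The pachytene difference was called without either Cxxc1-null diplotene library (limma adjusted p = 0.0254 in each case). In diplotene cells it was called at 2.51 without Cxxc1-null replicate 1 (limma adjusted p = 0.0126), and was 0.87 without Cxxc1-null replicate 2 (limma adjusted p = 0.472). Kif2b rose at the step to meiosis II by 3.24 ± 0.44 in Cxxc1-null (limma adjusted p = 0.000296) and by 4.45 ± 0.44 in WT cells (limma adjusted p = 4.08e-05).

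Some round spermatid markers were, like Kif2b, higher in Cxxc1-null pachytene and diplotene cells. In meiosis II, where Kif2b was also higher without overlap, 0 of the 13 genes were higher without overlap and 5 were lower. In pachytene cells 7 of the 13 genes (Acrv1, Spaca1, Spaca7, Tssk1, Tssk2, Catsper3 and Izumo1) were higher in Cxxc1-null without overlap, 1 (Prm2) was lower and 5 overlapped. In diplotene cells 6 (Acrv1, Spaca1, Spaca7, Acr, Catsper3 and Izumo1) were higher without overlap and 7 overlapped. The share of all genes tested that lay apart in this way was not counted, so these counts have no background. The sums of all 13 overlapped between genotypes at both stages (above). Without the protamine and transition protein genes, the split chosen after their values were seen, the 9 others summed to 349 and 356 FPKM in Cxxc1-null against 156 and 205 FPKM in WT pachytene libraries. In diplotene cells they summed to 376 and 628 FPKM in Cxxc1-null against 284 and 293 FPKM in WT libraries. These sums did not overlap, and the Cxxc1-null diplotene library with the high Kif2b value had the higher sum. Acrv1, an acrosome gene named after its values were seen, had 45.1 and 65.4 FPKM in Cxxc1-null against 17.7 and 11.9 FPKM in WT pachytene libraries. It had 19.6 and 70.0 FPKM in Cxxc1-null against 10.4 and 11.9 FPKM in WT diplotene libraries. The part of these transcripts in the Kif2b difference was not tested.

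The promoter window of Kif2b is shown because this gene gave the averaged call that held in all 21 other settings. A further reason is that CXXC1 binds unmethylated CpG dinucleotides, and DNA methylation was not examined here. The window is the 250 bases before the annotated start in RefSeq, on the GRCm38.p6 build, chr11:91577556-91577805, minus strand, read 5′ to 3′ in the direction of the gene, with CG dinucleotides in capitals.
Kif2b: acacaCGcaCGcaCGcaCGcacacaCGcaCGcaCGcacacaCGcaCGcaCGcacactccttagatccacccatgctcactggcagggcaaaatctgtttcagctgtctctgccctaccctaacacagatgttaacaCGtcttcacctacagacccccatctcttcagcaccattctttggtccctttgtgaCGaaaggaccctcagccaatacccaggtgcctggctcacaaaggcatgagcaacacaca
It holds 12 CG dinucleotides, most of them in the run of repeats at its 5′ end, which is more than in 66.5% of all 32851 windows of the table.

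Kif24 was the other gene sorted into the spindle assembly and length list that was called between genotypes. Kif24, whose product restrains cilium formation at centrioles in human cells, had 4.62 and 5.62 FPKM in Cxxc1-null against 6.73 and 7.74 FPKM in WT pachytene libraries. It had 3.72 and 4.39 FPKM in Cxxc1-null against 6.27 and 5.29 FPKM in WT diplotene libraries, and 1.19 and 0.962 FPKM in Cxxc1-null against 2.03 and 1.498 FPKM in WT meiosis II libraries. The Cxxc1-null libraries lay under the WT libraries at each stage with no overlap. Averaged over stages Kif24 fell by 0.42 on the log2 scale, with a standard error of 0.12 (limma adjusted p = 0.0433), and this call held in 6 of 21 other settings, with adjusted p between 0.0132 and 0.288. It fell at the step to meiosis II by 1.28 in Cxxc1-null and by 1.30 in WT cells (SE 0.21 each, limma adjusted p = 0.000964 and 0.000728). The Kif24 window lies at chr4:41464849-41465098 on GRCm38.p6, minus strand, and holds 22 CG dinucleotides, again in capitals.
Kif24: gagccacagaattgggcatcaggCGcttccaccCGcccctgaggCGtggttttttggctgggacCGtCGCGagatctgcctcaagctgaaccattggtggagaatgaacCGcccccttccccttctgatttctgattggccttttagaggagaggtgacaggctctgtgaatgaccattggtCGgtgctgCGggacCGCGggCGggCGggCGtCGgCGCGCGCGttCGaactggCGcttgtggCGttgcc

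Kif2a, which takes apart spindle and cytoplasmic microtubules, was abundant at every stage. It had 75.5 and 89.4 FPKM in Cxxc1-null against 85.8 and 77.8 FPKM in WT pachytene libraries, 54.9 and 76.5 FPKM in Cxxc1-null against 86.5 and 100.2 FPKM in WT diplotene libraries, and 63.2 and 79.6 FPKM in Cxxc1-null against 99.2 and 111 FPKM in WT meiosis II libraries. The Cxxc1-null values lay under the WT values at the later stages, but the averaged difference of -0.35 ± 0.13 did not pass (limma adjusted p = 0.0863), and no stage step passed. Kif2c, the depolymerase of the centromere, had 21.0 and 14.5 FPKM in Cxxc1-null against 13.5 and 22.8 FPKM in WT pachytene libraries, 38.9 and 30.3 FPKM in Cxxc1-null against 29.8 and 24.3 FPKM in WT diplotene libraries, and 22.7 and 21.5 FPKM in Cxxc1-null against 40.8 and 35.3 FPKM in WT meiosis II libraries. It rose from pachytene to diplotene in Cxxc1-null cells by 0.93 ± 0.28 (limma adjusted p = 0.0323), in 17 of 22 other settings. The meiosis II difference of -0.75 ± 0.28 between genotypes did not pass (limma adjusted p = 0.12), although the libraries did not overlap. The diplotene libraries of Kif2c did not overlap either, but in the other direction, with Cxxc1-null above WT, and that difference was not called.

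The motors that push spindle poles apart were lowest in meiosis II in Cxxc1-null cells. Kif11, which slides spindle microtubules apart, had 14.3 and 13.6 FPKM in Cxxc1-null against 14.1 and 13.6 FPKM in WT pachytene libraries, 15.5 and 10.95 FPKM in Cxxc1-null against 10.5 and 9.72 FPKM in WT diplotene libraries, and 7.88 and 5.35 FPKM in Cxxc1-null against 12.6 and 7.92 FPKM in WT meiosis II libraries. Its fall of 0.91 at the step to meiosis II was called in Cxxc1-null cells (SE 0.27, limma adjusted p = 0.0211, and lost without Cxxc1-null diplotene replicate 1 or meiosis II replicate 2), and the difference of this step between genotypes did not pass (limma adjusted p = 0.583). Kif15, a partner motor that can stand in for Kif11, had 19.9 and 24.7 FPKM in Cxxc1-null against 21.6 and 22.8 FPKM in WT pachytene libraries, 17.7 and 15.3 FPKM in Cxxc1-null against 16.6 and 13.4 FPKM in WT diplotene libraries, and 4.56 and 4.27 FPKM in Cxxc1-null against 10.7 and 6.43 FPKM in WT meiosis II libraries. It fell by 1.69 in Cxxc1-null and by 0.77 in WT cells at the step to meiosis II (SE 0.25 each, limma adjusted p = 0.000536 and 0.0308), and the WT call was lost without either WT diplotene library or WT meiosis II replicate 2. The genotype difference of Kif15 in meiosis II, -0.79 ± 0.25, did not pass (limma adjusted p = 0.0784).

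Kif18a and Kif18b limit microtubule growth. Kif18a, which damps chromosome movement at the metaphase plate, had 11.9 and 10.03 FPKM in Cxxc1-null against 9.83 and 6.33 FPKM in WT pachytene libraries, 12.5 and 7.71 FPKM in Cxxc1-null against 11.8 and 7.35 FPKM in WT diplotene libraries, and 21.0 and 14.8 FPKM in Cxxc1-null against 25.5 and 15.2 FPKM in WT meiosis II libraries. Its step to meiosis II was called in WT cells at 1.00 ± 0.35 (limma adjusted p = 0.041). This held in 14 of 22 other settings, with adjusted p up to 0.27, and was lost with both scalings, with no filter, and without WT meiosis II replicate 1, WT diplotene replicate 2 or either Cxxc1-null pachytene library. Kif18b, which shortens astral microtubules, had 2.04 and 2.33 FPKM in Cxxc1-null against 1.25 and 2.57 FPKM in WT pachytene libraries, 4.73 and 4.98 FPKM in Cxxc1-null against 4.45 and 5.08 FPKM in WT diplotene libraries, and 25.3 and 13.6 FPKM in Cxxc1-null against 18.2 and 20.1 FPKM in WT meiosis II libraries. It rose at the step to diplotene in WT cells by 1.02 ± 0.31 (limma adjusted p = 0.0344), in 13 of 22 other settings. It also rose at the step to meiosis II, by 1.74 in Cxxc1-null and by 1.81 in WT cells (SE 0.31 each, limma adjusted p = 0.00135 and 0.000906). The genotypes overlapped for both genes at each stage except Kif18a in pachytene cells.

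Of the kinesins called in meiosis II, the chromosome arm motor gene Kif4 had the lowest adjusted p. Kif4 encodes the X-linked chromosome-bound motor that organises chromosome arms and the central spindle. It had 0.339 and 0.248 FPKM in Cxxc1-null against 1.37 and 1.35 FPKM in WT meiosis II libraries. In pachytene cells it had 0.265 and 0.261 FPKM in Cxxc1-null against 0.155 and 0.286 FPKM in WT libraries, and in diplotene cells it was listed at 0 in both Cxxc1-null libraries against 0.142 and 0 FPKM in WT libraries. Only the WT meiosis II libraries reached 1 FPKM, so Kif4 entered the test through the group in which it was high, and a member that does so had to differ. In meiosis II it fell by 0.87 in Cxxc1-null (SE 0.13, limma adjusted p = 0.00429). The call held in 16 of 18 other settings that gave a value. It did not hold with a pseudocount of 0.1 (limma adjusted p = 0.0531) or in a fit of the meiosis II libraries alone (limma adjusted p = 0.0534), and adjusted p was 0.00191 at the lowest. Without either WT meiosis II library Kif4 did not pass the filter and was not tested. Its averaged difference was -0.30 ± 0.08 (limma adjusted p = 0.0239). Kif4 rose at the step to meiosis II by 0.37 ± 0.13 in Cxxc1-null (limma adjusted p = 0.0422) and by 1.14 ± 0.13 in WT cells (limma adjusted p = 8.79e-05). The Cxxc1-null step held in 7 of 19 other settings, with adjusted p up to 0.37. It was lost with both scalings and without either library of the Cxxc1-null pachytene, Cxxc1-null diplotene, Cxxc1-null meiosis II or WT diplotene cells.

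Kif4-ps is annotated in RefSeq as a transcribed pseudogene on chromosome 12 and shares sequence with Kif4, so reads may have been split between them and both values are uncertain. It had 3.66 and 2.52 FPKM in Cxxc1-null against 4.04 and 4.44 FPKM in WT pachytene libraries, 9.42 and 5.38 FPKM in Cxxc1-null against 12.7 and 7.94 FPKM in WT diplotene libraries, and 2.03 and 0.923 FPKM in Cxxc1-null against 7.21 and 3.90 FPKM in WT meiosis II libraries. The Cxxc1-null libraries lay under the WT libraries in pachytene and meiosis II cells and overlapped them in diplotene cells. Kif4-ps fell in Cxxc1-null meiosis II cells by 1.39 (SE 0.37, limma adjusted p = 0.0392, and 0.00904 to 0.248 over the other settings). Averaged over stages it fell by 0.74 (SE 0.21, limma adjusted p = 0.0405). Between diplotene and meiosis II it fell by 1.76 in Cxxc1-null cells (SE 0.37, limma adjusted p = 0.00333). Kif22, the motor that pushes chromosome arms away from the poles, did not share this direction. It had 15.2 and 8.41 FPKM in Cxxc1-null against 11.9 and 14.96 FPKM in WT pachytene libraries, 25.9 and 20.9 FPKM in Cxxc1-null against 11.3 and 12.5 FPKM in WT diplotene libraries, and 47.0 and 31.4 FPKM in Cxxc1-null against 35.9 and 31.9 FPKM in WT meiosis II libraries. Kif22 rose at the step to diplotene in Cxxc1-null cells by 0.98 ± 0.30 (limma adjusted p = 0.0329), in 16 of 22 other settings, and at the step to meiosis II in WT cells by 1.43 ± 0.30 (limma adjusted p = 0.00275). Its diplotene libraries did not overlap between genotypes, with a difference of 0.91 ± 0.30 that did not pass (limma adjusted p = 0.197).

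In the central spindle group, Kif20b was lower in Cxxc1-null meiosis II cells. The KIF20B protein works at the midbody, where daughter cells are cut apart. Kif20b had 19.8 and 15.5 FPKM in Cxxc1-null against 21.7 and 16.3 FPKM in WT pachytene libraries, and 16.2 and 9.44 FPKM in Cxxc1-null against 19.0 and 12.6 FPKM in WT diplotene libraries. In meiosis II it had 6.46 and 5.65 FPKM in Cxxc1-null against 21.2 and 12.7 FPKM in WT libraries. The genotypes overlapped at the earlier stages and were apart in meiosis II, where the WT libraries differed from each other more than the Cxxc1-null ones did. There Kif20b fell by 1.31 (SE 0.33, limma adjusted p = 0.0339), a call that held in 15 of 21 other settings, with adjusted p between 0.00529 and 0.23. It was lost in a fit of the meiosis II libraries alone and without WT meiosis II replicate 1, either Cxxc1-null meiosis II library or either Cxxc1-null pachytene library. Kif20b fell at the step to meiosis II by 0.93 in Cxxc1-null cells (SE 0.33, limma adjusted p = 0.0444, in 15 of 22 other settings), against a difference of 0.08 in WT cells that did not pass (limma adjusted p = 0.868).

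Windows of Kif4, Kif20b and Kif6, the genes called in meiosis II that matched a window, are given so that they can be set beside that of Kif2b, on GRCm38.p6 and in the direction of the gene, with CG dinucleotides in capitals. Kif4 lies at chrX:100625815-100626064, plus strand, Kif20b at chr19:34922108-34922357, plus strand, and Kif6, described below, at chr17:49614922-49615171, plus strand.
Kif4: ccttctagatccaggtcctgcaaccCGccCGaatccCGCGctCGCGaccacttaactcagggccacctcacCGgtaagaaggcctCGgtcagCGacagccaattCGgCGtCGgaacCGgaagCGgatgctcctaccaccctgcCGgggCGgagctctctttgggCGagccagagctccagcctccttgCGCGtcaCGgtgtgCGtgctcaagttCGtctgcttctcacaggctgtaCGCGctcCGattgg
Kif20b: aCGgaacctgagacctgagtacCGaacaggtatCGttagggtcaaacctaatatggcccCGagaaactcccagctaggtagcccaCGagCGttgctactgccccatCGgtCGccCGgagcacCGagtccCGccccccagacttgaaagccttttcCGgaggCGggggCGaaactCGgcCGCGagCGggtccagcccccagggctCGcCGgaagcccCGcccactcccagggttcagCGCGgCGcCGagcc
Kif6: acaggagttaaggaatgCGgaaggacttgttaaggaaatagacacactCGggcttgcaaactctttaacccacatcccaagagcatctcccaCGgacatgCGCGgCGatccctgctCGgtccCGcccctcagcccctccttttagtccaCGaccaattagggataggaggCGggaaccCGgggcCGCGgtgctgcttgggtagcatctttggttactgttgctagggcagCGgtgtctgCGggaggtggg
They hold 25, 25 and 15 CG dinucleotides. For Kif4 and Kif20b that is more than in 89.3% of all windows, and for Kif6 more than in 72.7%.

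The other cytokinesis motors were not called between genotypes. Kif23, the motor of centralspindlin, which also sits at the bridges between germ cells, had 6.87 and 4.95 FPKM in Cxxc1-null against 5.87 and 6.77 FPKM in WT pachytene libraries, 8.56 and 6.92 FPKM in Cxxc1-null against 8.88 and 6.97 FPKM in WT diplotene libraries, and 25.05 and 19.4 FPKM in Cxxc1-null against 37.3 and 29.4 FPKM in WT meiosis II libraries. It rose at the step to meiosis II by 1.41 in Cxxc1-null and by 1.94 in WT cells (SE 0.25 each, limma adjusted p = 0.00133 and 0.000157). In meiosis II its Cxxc1-null libraries lay under the WT libraries, with a difference of -0.56 ± 0.25 that did not pass (limma adjusted p = 0.184). Kif20a, which brings Aurora B to the central spindle, and Kif14, which recruits citron kinase to the midbody, passed no test. Kif20a lay between 9.61 and 38.2 FPKM and Kif14 between 0.893 and 1.78 FPKM over the 12 libraries.

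**Figure D4:**
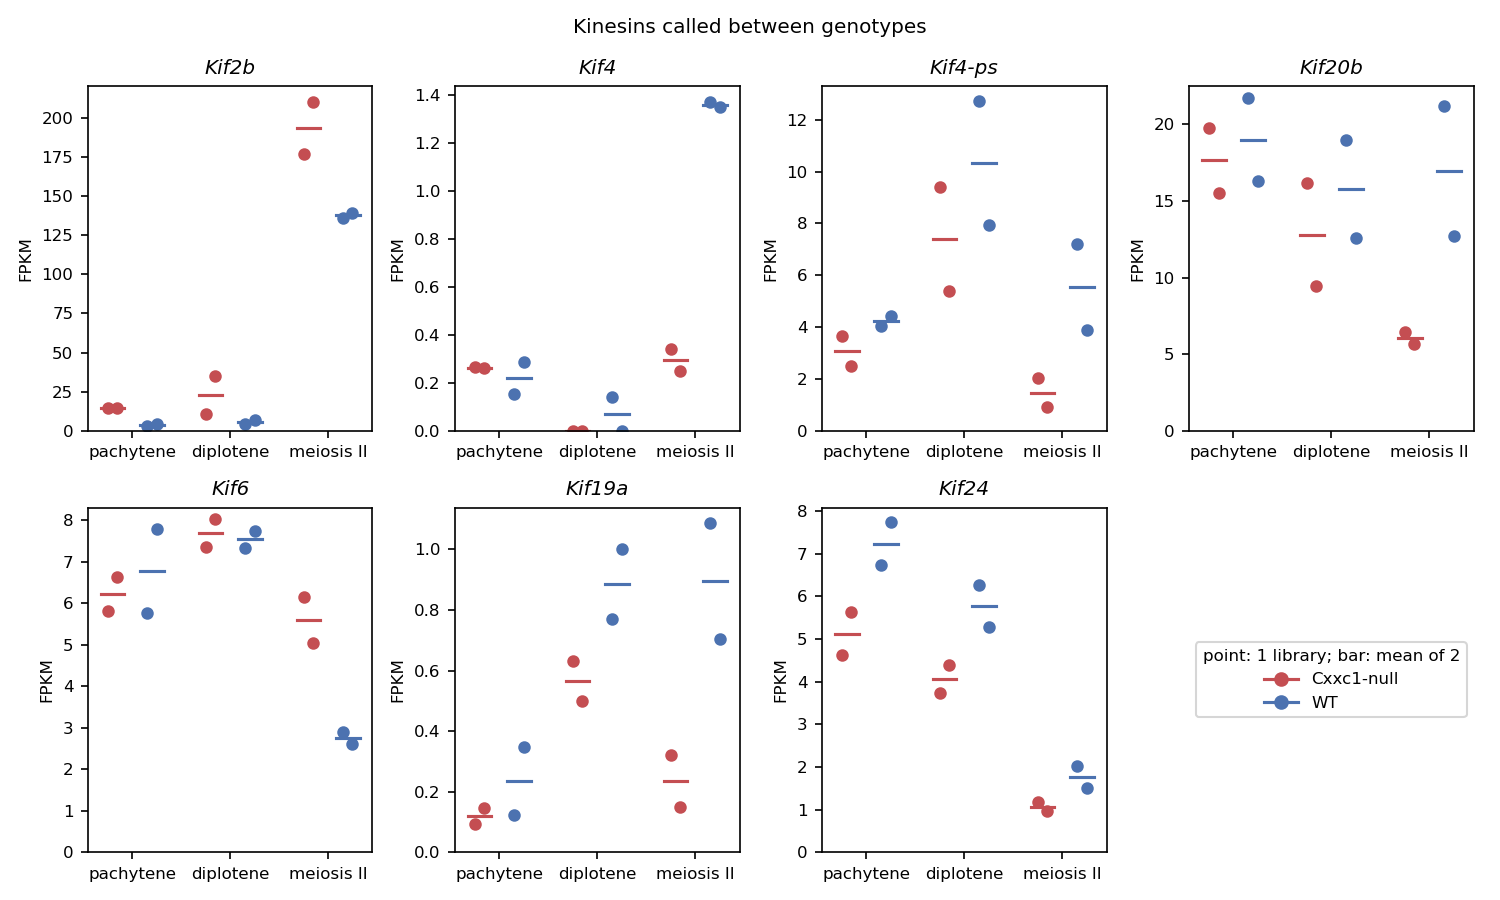
FPKM of the 7 kinesins called between genotypes in meiosis II or averaged over stages, with a point for each library, a bar for the mean of 2, Cxxc1-null left of WT at each stage, and an axis that starts at 0 in each panel. Kif2b is higher in Cxxc1-null cells at each stage, Kif24 is lower at each stage, and Kif4, Kif4-ps, Kif20b and Kif19a are lower and Kif6 higher in Cxxc1-null meiosis II cells.

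The cilium and flagellum group held the remaining genotype calls. Kif6, a relative of Kif9 and a motor of motile cilia, had 5.82 and 6.64 FPKM in Cxxc1-null against 5.78 and 7.79 FPKM in WT pachytene libraries, and 7.35 and 8.04 FPKM in Cxxc1-null against 7.32 and 7.75 FPKM in WT diplotene libraries. In meiosis II it had 6.15 and 5.04 FPKM in Cxxc1-null against 2.89 and 2.61 FPKM in WT libraries. The genotypes overlapped until meiosis II, when the WT level dropped below both Cxxc1-null libraries. Kif6 was higher by 0.81 ± 0.22 in Cxxc1-null meiosis II cells (limma adjusted p = 0.0416). This call held in 10 of 21 other settings, with adjusted p between 0.0174 and 0.188, and was lost in a fit of the meiosis II libraries alone and on leaving out any library except those of WT pachytene cells. At the step to meiosis II Kif6 fell by 1.19 in WT cells (SE 0.22, limma adjusted p = 0.00134), and the difference of -0.40 in Cxxc1-null cells did not pass (limma adjusted p = 0.164). Kif19a, which shortens microtubules at the tips of motile cilia in mice, was low in all libraries. It had 0.0926 and 0.146 FPKM in Cxxc1-null against 0.124 and 0.349 FPKM in WT pachytene libraries, 0.632 and 0.501 FPKM in Cxxc1-null against 0.772 and 1.00 FPKM in WT diplotene libraries, and 0.323 and 0.148 FPKM in Cxxc1-null against 1.09 and 0.703 FPKM in WT meiosis II libraries. It passed the filter on low values through 2 WT libraries, so it too had to differ. The meiosis II fall was 0.61 (SE 0.17, limma adjusted p = 0.0431) and the averaged fall 0.34 (SE 0.10, limma adjusted p = 0.0371), and they held in 7 and 8 of 18 other settings. In WT cells Kif19a rose by 0.61 ± 0.17 at the step to diplotene (limma adjusted p = 0.0227). No pachytene library reached 1 FPKM, so Kif19a also entered this comparison through later stages, in which it was high.

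The abundant flagellar motor gene Kif9, needed for sperm movement in mice, rose early. It had 64.5 and 53.3 FPKM in Cxxc1-null against 51.7 and 74.9 FPKM in WT pachytene libraries, 142 and 105 FPKM in Cxxc1-null against 167 and 114 FPKM in WT diplotene libraries, and 170.2 and 119 FPKM in Cxxc1-null against 213 and 165 FPKM in WT meiosis II libraries. The genotypes overlapped at every stage. From pachytene to diplotene Kif9 rose by 1.05 in Cxxc1-null and by 1.14 in WT cells (SE 0.29 each, limma adjusted p = 0.0251 and 0.0188). Kif7, which regulates Hedgehog signalling at the cilium tip, had 1.87 and 1.49 FPKM in Cxxc1-null against 1.20 and 2.42 FPKM in WT pachytene libraries, 6.69 and 5.60 FPKM in Cxxc1-null against 5.95 and 4.51 FPKM in WT diplotene libraries, and 10.5 and 6.53 FPKM in Cxxc1-null against 9.12 and 10.4 FPKM in WT meiosis II libraries. It rose at the step to diplotene by 1.41 in Cxxc1-null and by 1.17 in WT cells (SE 0.29 each, limma adjusted p = 0.0087 and 0.0159), and at the step to meiosis II by 0.80 in WT cells (limma adjusted p = 0.0455). That last call held in 10 of 22 other settings, with adjusted p up to 0.212, and was lost with both scalings, with a pseudocount of 0.1 and without any library except those of WT pachytene and Cxxc1-null meiosis II cells. Kif27, a close relative of Kif7 tied to motile cilia, rose at each step in both genotypes. It had 9.90 and 7.73 FPKM in Cxxc1-null against 7.61 and 11.6 FPKM in WT pachytene libraries, 18.1 and 19.5 FPKM in Cxxc1-null against 15.8 and 19.4 FPKM in WT diplotene libraries, and 39.9 and 38.8 FPKM in Cxxc1-null against 34.2 and 33.0 FPKM in WT meiosis II libraries. Its steps were 1.02 and 1.03 in Cxxc1-null and 0.83 and 0.90 in WT cells (SE 0.23 each, limma adjusted p = 0.0125 and 0.0052, and 0.0268 and 0.00956).

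Kif17, a motor that carries a transcriptional coactivator in mouse round spermatids, had the largest step to meiosis II after Kif2b in both genotypes. It had 0.865 and 1.31 FPKM in Cxxc1-null against 0.451 and 2.095 FPKM in WT pachytene libraries, 1.19 and 4.47 FPKM in Cxxc1-null against 0.544 and 1.65 FPKM in WT diplotene libraries, and 12.8 and 20.0 FPKM in Cxxc1-null against 15.4 and 20.7 FPKM in WT meiosis II libraries. The genotypes overlapped at each stage, and Cxxc1-null diplotene replicate 2 was the highest library before meiosis II. The step to meiosis II was 2.30 ± 0.49 in Cxxc1-null (limma adjusted p = 0.00365) and 3.22 ± 0.49 in WT cells (limma adjusted p = 0.000427). The motor subunits of the intraflagellar transport kinesin passed no test. Kif3a had 32.0 and 27.0 FPKM in Cxxc1-null against 33.7 and 35.8 FPKM in WT pachytene libraries, 34.9 and 31.8 FPKM in Cxxc1-null against 31.9 and 30.7 FPKM in WT diplotene libraries, and 32.6 and 33.0 FPKM in Cxxc1-null against 27.8 and 26.5 FPKM in WT meiosis II libraries. Kif3b had 22.2 and 23.1 FPKM in Cxxc1-null against 22.7 and 28.5 FPKM in WT pachytene libraries, 25.8 and 32.6 FPKM in Cxxc1-null against 35.6 and 42.4 FPKM in WT diplotene libraries, and 26.0 and 28.5 FPKM in Cxxc1-null against 37.6 and 45.5 FPKM in WT meiosis II libraries. In meiosis II Kif3a was the higher in Cxxc1-null and Kif3b the lower, without overlap, and the averaged difference of Kif3b was -0.39 ± 0.12 (limma adjusted p = 0.0581).

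Of the 16 cargo motors 9 were tested, and limma called 0 of them between genotypes, against the 0.355%, 0.787%, 10.5% and 16.7% of all genes called in pachytene, diplotene, meiosis II and the average. At an unadjusted p under 0.05, 0 passed in pachytene, 0 in diplotene, 0 in meiosis II and 1 in the average. Of all 12956 genes tested, 1388, 1747, 3385 and 4178 passed in the same comparisons. Their stage changes ran in both directions. Kif5b, the ubiquitous heavy chain of conventional kinesin, had 7.87 and 10.1 FPKM in Cxxc1-null against 8.75 and 8.67 FPKM in WT pachytene libraries, 4.32 and 3.69 FPKM in Cxxc1-null against 3.76 and 3.63 FPKM in WT diplotene libraries, and 3.37 and 2.29 FPKM in Cxxc1-null against 2.56 and 2.19 FPKM in WT meiosis II libraries. It fell at the step to diplotene by 0.99 in Cxxc1-null and by 1.05 in WT cells (SE 0.22 each, limma adjusted p = 0.0121 and 0.00873). The neuronal heavy chain gene Kif5c fell by 0.79 at this step in Cxxc1-null cells (SE 0.24, limma adjusted p = 0.0331), in 13 of 21 other settings. It had 2.15 and 2.38 FPKM in Cxxc1-null against 1.25 and 2.47 FPKM in WT pachytene libraries, 0.863 and 0.922 FPKM in Cxxc1-null against 0.440 and 1.11 FPKM in WT diplotene libraries, and 0.314 and 0.301 FPKM in Cxxc1-null against 0.735 and 0.523 FPKM in WT meiosis II libraries. Both heavy chains were thus highest in pachytene cells of either genotype.

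The rising cargo motors were Kif16b and Kif21a. Kif16b, an endosome motor, had 4.64 and 4.27 FPKM in Cxxc1-null against 3.57 and 4.27 FPKM in WT pachytene libraries, 4.57 and 4.80 FPKM in Cxxc1-null against 5.64 and 4.60 FPKM in WT diplotene libraries, and 7.84 and 7.77 FPKM in Cxxc1-null against 11.3 and 9.15 FPKM in WT meiosis II libraries. It rose by 0.63 in Cxxc1-null and by 0.88 in WT cells at the step to meiosis II (SE 0.21 each, limma adjusted p = 0.0322 and 0.0063). The Cxxc1-null call held in 14 of 22 other settings, with adjusted p up to 0.126, and was lost with both scalings and without any of the 4 Cxxc1-null diplotene and meiosis II libraries. The WT call was lost without WT diplotene replicate 2 or WT meiosis II replicate 1. Kif21a, which tempers microtubule growth at the cell cortex and in axons, had 0.741 and 0.757 FPKM in Cxxc1-null against 0.372 and 0.476 FPKM in WT pachytene libraries, 0.267 and 0.451 FPKM in Cxxc1-null against 0.0841 and 0.1004 FPKM in WT diplotene libraries, and 2.26 and 4.14 FPKM in Cxxc1-null against 2.34 and 2.14 FPKM in WT meiosis II libraries. It passed the filter through its meiosis II libraries alone, and its steps of 1.59 in Cxxc1-null and 1.57 in WT cells (SE 0.21 each, limma adjusted p = 0.00026 and 0.000193) are to be read with that in mind, since a gene that enters this way had to differ. The Cxxc1-null libraries lay above the WT libraries at the earlier stages, with an averaged difference of 0.32 ± 0.12 that did not pass (limma adjusted p = 0.102). Kif1b, Kif13b, Kif21b, Kifc2 and Kifc3 passed no test. The highest of them was Kifc3, a minus-end-directed motor of cell junctions, between 4.01 and 11.6 FPKM over the 12 libraries.

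Whether a genotype effect differs between stages was tested with an interaction term. It called 0 of 32 kinesins, against 0.054% of all genes tested. An unadjusted p under 0.05 was found for 2 kinesins and for 1136 of all 12956 genes tested. The 2 kinesins were Kif4 (limma adjusted p = 0.237) and Kif6 (limma adjusted p = 0.474), so the meiosis II calls are not shown to be particular to that stage. In Cxxc1-null cells 7 of the 32 members had their highest mean in pachytene, 9 in diplotene and 16 in meiosis II, and in WT cells 8, 3 and 21 did. The stage differed between genotypes for 9 members, among them Kif2a, Kif2c, Kif3b, Kif14, Kif19a and Kif20a, which peaked in meiosis II in WT cells and earlier in Cxxc1-null cells. Kif3a and Kifc2 peaked in pachytene in WT and in diplotene in Cxxc1-null cells. Kif21b peaked in diplotene in WT and in meiosis II in Cxxc1-null cells. Some means lay close, as for Kif19a at 0.887 FPKM in WT diplotene and 0.896 FPKM in WT meiosis II cells. Kif4 and Kif21a, which passed the filter through meiosis II libraries alone, are among the meiosis II peaks of both genotypes. The shares of all genes that peaked at each stage, or whose peak stage differed, were not counted. The peak counts therefore have no background. The peak stages are read from the means of 2 libraries and were not tested.

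Genes that work with kinesins were taken from 5 lists. None of the 14 kinesin light chain, accessory subunit and adaptor genes and none of the 16 tested spindle assembly partners was called in a genotype comparison by limma. The shares of all genes called were 0.355% in pachytene, 0.787% in diplotene, 10.5% in meiosis II and 16.7% in the average. In meiosis II 4 of each list had an unadjusted p under 0.05, as did 3385 of all 12956 genes tested. Of the 15 central spindle and cytokinesis partners, 1 rose and 1 fell in meiosis II, where 10.5% of all genes were called, and 1 rose and 3 fell in the average, where 16.7% were. Cdca8, which encodes borealin of the chromosomal passenger complex, had 41.7 and 45.3 FPKM in Cxxc1-null against 98.8 and 82.1 FPKM in WT meiosis II libraries and fell by 1.03 (SE 0.19, limma adjusted p = 0.00948). Rhoa, the GTPase that drives the cleavage furrow, had 82.4 and 70.4 FPKM in Cxxc1-null against 38.6 and 33.8 FPKM in WT meiosis II libraries and rose by 1.06 ± 0.23 (limma adjusted p = 0.0198). In the average Anln, the furrow scaffold anillin, fell by 0.60 and Cntrob, a centriole protein gene, by 0.49 (limma adjusted p = 0.034 and 0.0236). Of 21 tested intraflagellar transport genes, Ttc21b alone was called between genotypes, and it fell in meiosis II by 1.47 (SE 0.26, limma adjusted p = 0.00792) and in the average by 1.07 (SE 0.15, limma adjusted p = 0.00184). It encodes a subunit of the retrograde train and had 18.6 and 11.4 FPKM in Cxxc1-null against 47.9 and 37.1 FPKM in WT meiosis II libraries. Among the 22 dynein and dynactin genes, motors of the opposite direction, 0 were called in meiosis II by limma. There 6 of them had an unadjusted p under 0.05, against the 3385 of all 12956 genes given above. In the average Dynlt3 rose by 0.98 and Dctn3 by 0.44 and Dync1li2 fell by 0.48 (limma adjusted p = 0.0159, 0.0365 and 0.0162).

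Promoter windows were found for 33 of the 42 members, 37 windows in all. A member window held 22 CG dinucleotides at the median, with a range of 1 to 49, against a median of 6 and quartiles of 2 and 16 over all 32851 windows. The letters CCAAT, the box of the factor NF-Y, were found on either strand in 45.9% of member windows and 33.8% of all windows. The cell cycle genes homology region was searched as TTTGAA, found in 21.6% of member and 16.0% of all windows, and as TTTAAA, found in 5.41% and 12.1%. The MYB core AACNG was found in 81.1% of member and 74.2% of all windows. Of the windows printed, that of Kif24 held CCAAT 4 times, that of Kif4 2 times, those of Kif2b and Kif6 once, and that of Kif20b held no match. A match is a description of these letters and not a site.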

How the data were processed

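RNA was measured in 12 libraries of 500 sorted cells. The authors deposited FPKM values per gene, and the submitters' processing notes name TopHat2 2.1.1, Cufflinks 2.2.1 and the mm9 build without giving their roles. No counts were used here, so depth and the counting error of each value are unknown. Strand was not described, so overlapping or antisense genes are uncertain. A pseudocount of 1 was added before the log2 transform, and a gene was tested where 2 or more libraries reached 1 FPKM, which left 12956 genes. limma 3.58.1 in R 4.3.3 was fitted with a mean for each of the 6 groups over all 12 libraries, with a trended prior and Benjamini-Hochberg adjustment at 0.05. A fold change on this scale understates changes of low genes. The fit was tested on simulated data. Figures used matplotlib 3.10.9 in Python 3.11.15. Every kinesin called in a comparison, and Kif2a, Kif3a and Kif3b, were named with library values. The members, role lists, partner lists and marker lists were chosen with earlier results of these data known. Gene names, chromosomes and promoter windows came from RefSeq on GRCm38.p6, which is not the build of the files, and all 42 members matched by symbol. Alternatives changed the pseudocount, filter, scaling, fit, replicate block and libraries.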

Additional observations from a re-analysis of the deposited data

How the results depend on the processing

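No kinesin difference called in the main analysis changed direction under any alternative, and 19 of the 50 called pairs of gene and comparison were called under every setting that gave a value. The meiosis II genotype count of 5 became 3 with a pseudocount of 0.1, 3 with a filter of 5 FPKM and 0 when the 4 libraries were fitted alone. The averaged count of 5 became 2 with a filter of 5 FPKM, 3 with no filter, and 1 without both libraries that stood apart, an alternative chosen after seeing the data. The WT step to diplotene became 0 in a separate fit, against 6, and the Cxxc1-null step to diplotene became 11 with a common median and 11 with array weights, against 7. Causes of these changes were not tested. With the replicate number as a block the averaged count was 8, and with a block within genotype it was 1. Deviations of same-numbered libraries correlated at -0.07 in pachytene, 0.32 in diplotene and 0.11 in meiosis II cells between genotypes, and at 0.12 to 0.42 between the stages of a genotype, all 6 over 0.1. The labels give no shared animal or batch and each group has only 2 numbers, so they were not taken as pairs, and whether libraries of a genotype are linked across stages was not settled. With the block within genotype the stage steps had 10 and 14 calls in Cxxc1-null and 9 and 15 in WT cells.

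Leaving out each library in turn gave 0 to 1 calls for the pachytene genotype difference, 0 to 1 for diplotene, 0 to 5 for meiosis II and 1 to 5 for the average. It gave 0 to 9 and 9 to 13 for the Cxxc1-null steps to diplotene and to meiosis II, 1 to 8 and 9 to 14 for the WT steps, and 0 to 0 for the interaction. The averaged Cxxc1 difference ranged from -1.17 to -0.996. A group left with 1 library was assumed to vary like the others. With 2 libraries a group and no counts, low genes such as Kif4 and Kif19a are the least certain.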

Other observations

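Partners of the kinesins also changed between stages. Kifap3, the accessory subunit that joins KIF3A and KIF3B to cargo, had 57.7 and 68.4 FPKM in Cxxc1-null and 74.2 and 63.3 FPKM in WT meiosis II libraries, against 22.1 and 28.6 FPKM in Cxxc1-null and 24.9 and 24.2 FPKM in WT diplotene libraries. It rose at the step to meiosis II by 1.29 in Cxxc1-null and by 1.44 in WT cells (SE 0.20 each, limma adjusted p = 0.000667 and 0.000244), while neither motor subunit passed a test at that step. Of the 21 tested intraflagellar transport genes, 1 rose and 7 fell at this step in Cxxc1-null cells, where 25.3% of all genes were called higher and 18.8% lower. In WT cells 1 rose and 6 fell, where 26.1% of all genes were called higher and 18.9% lower. Of the 15 central spindle and cytokinesis partners, 1 rose and 5 fell in Cxxc1-null cells, and 2 rose and 3 fell in WT cells, against the same shares of all genes.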
